A study of Mus musculus with 8 samples.

Results

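The transcripts described here are those recovered with an antibody against YTHDF3 from nutrient-starved mouse embryonic fibroblasts (MEFs) in both replicate experiments. A peak, a stretch of the genome with more reads in the immunoprecipitated RNA (IP) than in the input RNA of the same culture, was kept when it overlapped a peak of the other starved list by 1 bp or more. This kept 14164 of 23294 peaks in starved replicate 1 (60.8%) and 13594 of 24911 in starved replicate 2 (54.6%), out of 87940 peaks in the 4 lists of the series. The kept peaks formed 15106 overlapping pairs and 12652 of the 33099 separate regions that the 2 starved lists covered. Genes were ranked by the IP/input ratio of their best pair, taking the smaller of the 2 lists' ratios, and by IP reads.

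The MEFs were wild type C57BL/6 cells from 13.5 dpc embryos at passages 5 to 6. The starved cultures were kept in a nutrient-deprived medium for 2 h and the normal cultures were untreated. Each condition had 2 IP libraries and 2 input libraries of polyA RNA. The lists do not name their inputs, and each was taken to be the input of the same condition and number. Nothing in the labels says whether replicates came from separate embryos or cultures, so p-values measure the spread between these samples only.

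YTHDF3 is a cytoplasmic protein of the YTH family, which binds N6-methyladenosine (m6A), the most common internal mark of messenger RNA. The methyltransferase complex places the mark mainly where a GGAC sequence lies around the adenosine, often in long internal exons and near stop codons. Bound YTHDF proteins are known to affect how long a transcript lasts and how well it is translated. Autophagy, which starvation induces, recycles cell contents and is controlled by nutrient-sensing kinases and by transcription factors that include FOXO3.

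In the stretches below, the GGAC nearest the centre of the pair is in capitals and the rest, including another GGAC in the Zc3h4 stretch, is in lower case. They are the sites nearest the centre of the pair in 6 of the transcripts with the highest ratios on a measured input, and in Foxo3, read on the transcribed strand from the RefSeq sequence of GRCm38 (mm10). They show which bases lay under the pairs and are not mapped methylation sites. The paper writes the m6A motif as RRACH, in which H is any base but G. Capitals followed by g, as in Itpkb, Zc3h4, Vps18, Snx33 and the last Foxo3 stretch, do not match it.
Itpkb, coding sequence, chr1:180413930-180413956, plus strand: tacaaccagatGGACgacctgctggct
Zc3h4, coding sequence, chr7:16421463-16421489, plus strand: gagcacccagaGGACgaagaggacttg
Vps18, 5′ UTR, chr2:119288966-119288992, plus strand: ttgcaaatccaGGACgaccggggtccc
Plcxd2, 5′ UTR, chr16:46010017-46010043, minus strand: gaagagggtggGGACtgcgggagcagc
Snx33, coding sequence, chr9:56926700-56926726, minus strand: agtatccagcaGGACgaagagctggtt
Uhrf1bp1, coding sequence, chr17:27890072-27890098, plus strand: ctccatgaagaGGACagtctctcagca
Foxo3, 3′ UTR, chr10:42184242-42184268, minus strand: attttggtggaGGACtaactggctttc
Foxo3, coding sequence, chr10:42197202-42197228, minus strand: gtaccgtgtttGGACcttcgtctctga
Foxo3, coding sequence, chr10:42275218-42275244, minus strand: gaagacgacgaGGACggcggcggccga

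In the kept peaks the median number of IP reads was 185 in starved replicate 1 and 209.5 in replicate 2, and the median number of input reads was 29 and 48. Ratios are in the deposited units, which scale each library by a constant. Where the input was under 3 units, 3 was used, which stands for 1.96 reads in replicate 1 and 2.45 reads in replicate 2. Intervals given with ratios are exact 95% binomial intervals and cover counting error only. Peaks that were not kept had fewer reads, with medians of 54 and 80 IP reads, so the kept peaks held 91.1% and 72.5% of all IP reads in peaks. Near the limit of the overlap rule, 97 pairs overlapped by 10 bp or less, with a median smaller ratio of 2.82. A further 48 peaks of replicate 1 lay within 10 bp of a replicate 2 peak without overlapping it, with a median ratio of 3.93.

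The name attached to a peak in the deposited lists was often not that of the transcript under it. HOMER, which annotated the peaks, names the nearest transcription start. In 52.6% of the 14993 pairs with 1 name, the named gene was also the gene with the most exonic sequence under the pair in the GENCODE M21 annotation. Exons of another gene lay under 41.2% of the pairs, and 6.2% (929 pairs) lay outside exons. Of the pairs in exons, 98.0% were in protein-coding genes. The pairs gave 4107 genes by deposited name and 3330 genes by exon overlap.

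Genes of starvation and autophagy were among those affected. All 10 pairs named Map1lc3b, which encodes the autophagosome protein LC3B, lay in exons of Zcchc14. All 3 pairs named Atf4, the main transcription factor of the integrated stress response, lay in exons of Mief1. The 10 pairs named Prkag1, a subunit of the energy sensor AMPK, lay in exons of Kmt2d, a histone methyltransferase. The 16 pairs named Olfr412, an olfactory receptor, lay in exons of Rap1gap2 in 15 cases. The 2 pairs named Atg14 lay in Fbxo34 and those named Wdr45b lay in Foxk2. The gene under the pair is therefore given below beside the deposited name where they differ. The peaks carry no strand, so genes that overlap on opposite strands cannot be told apart.

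By IP reads, the 5 leading starved targets were Flna, Tnc, Thbs1, Plec and Ahnak. Flna, which encodes the actin crosslinker filamin A, had 552910 IP reads against 79674 input reads in replicate 1 and 544539 against 110435 in replicate 2. Tnc, the matrix protein tenascin-C, had 482431 and 426001 IP reads, and Thbs1, the matrix glycoprotein thrombospondin-1, had 306289 and 278136. Plec, the cytoskeletal linker plectin, had 250975 and 311196 IP reads. Ahnak, a very large scaffold protein, had 242192 and 297318.

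Cd44, the hyaluronan receptor, was split between names. Its pairs carried the names Gm13872 and Cd44 and together held 239104 and 218013 IP reads by exon overlap. Pairs named 6030407O03Rik lay in Tns1, the focal adhesion protein tensin-1, and the pair named Tigar lay in Ccnd2, which encodes the cell cycle protein cyclin D2. Further members of the 15 were Col6a3, Prrc2a, Mir6995 (exons of Sh3pxd2a) and Igfbp5, with smaller IP read numbers from 69608 to 95411.

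The IP reads of a gene followed its input reads closely. Over genes by deposited name, log2 IP reads and log2(input reads + 1) had a Pearson r of 0.98 in each replicate. The genes are not independent replicates, and only peaks with a ratio near 2 or more were in the lists, which limits how far points can lie from the line. The 10 leading genes by exon overlap took 18.8% and 19.4% of the IP reads of kept peaks, and the 100 leading genes took 45.1% and 45.3%.

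**Figure D1:**
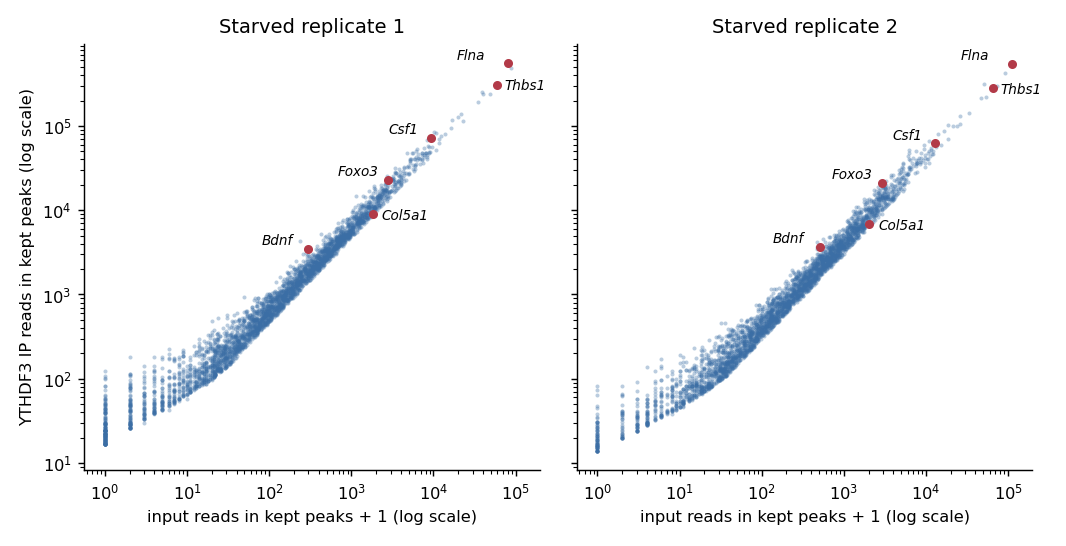
YTHDF3 IP reads (y axis, log scale) against input reads plus 1 (x axis, log scale), summed over kept peaks, for genes by exon overlap in the 2 starved replicates. Each point is 1 gene and Gm21451, which has a near-identical copy, is left out. Flna and Thbs1 lie at the top right and Foxo3 lies above Col5a1 at a similar input.

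Ratios of the leading genes by reads were moderate. For Flna the summed IP reads were 2.97 times the summed input in replicate 1 and 3.29 times in replicate 2, in deposited units. Thbs1 had 2.21 and 2.82, Ahnak had 2.11 and 2.69, and Plec had 2.79 and 4.03. Among the 20 leading genes by exon overlap, which were chosen after their values were seen, Mn1, a transcriptional regulator, had 3.55 and 5.64, and Csf1, the macrophage growth factor, had 3.31 and 3.20. Csf1, Mn1 and Prrc2a were covered by pairs over nearly their full annotated transcript, at 100%, 100% and 99.8% of its length, whereas Thbs1 was covered over 14.6% and Tnc over 43.3%.

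The share of the transcript under peaks varied widely. Of 3144 coding genes with a pair, 910 (28.9%) had at least 50% of their transcript under peaks of both lists, and the median was 21.6%. By exon overlap, 1012 genes had 1 pair and 346 genes had 10 or more. The most pairs were in Hectd4, with 49, in Herc2, with 42, and in Wdfy3, with 40. Hectd4 and Herc2 encode very large HECT-domain proteins and Wdfy3 encodes the autophagy adaptor ALFY. These were chosen after their values were seen.

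Long transcripts were more often targets. The median transcript length was 4650 nt for coding genes with a pair and 2257 nt for those without. With coding genes ordered by length into 5 classes of equal size, 0.617% of the shortest class, up to 1299 nt, had a pair. In the longest class, from 4456 nt, 38.8% had one. The part of sequencing depth in this was not tested.

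The IP/input ratios of the pairs were mostly low. The smaller ratio had a median of 2.66, with quartiles of 2.30 and 3.31, and 10% of pairs were above 4.23. A smaller ratio of at least 4 was found in 1877 pairs (12.5%) from 1121 genes, and of at least 8 in 119 pairs (0.794%) from 98 genes.

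The pairs with the highest ratios rested on very few input reads. All 119 pairs at 8 or more had fewer than 10 input reads in at least 1 list, with medians of 2 and 3 input reads, and 81 of them were at the floor in 1 or both lists. Among the 11232 pairs with at least 10 input reads in each list, the highest smaller ratio was 7.05 and 322 (2.87%) reached 4. The pairs of at least 8 fell to 54 with a floor of 3 reads and to 8 with a floor of 10 units.

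The ratio of a pair differed widely between the replicates. The log2 ratios of the lists had a Pearson r of 0.52 and a Spearman rho of 0.48 over 14993 pairs, which share their libraries and are not independent. With at least 10 input reads in each list, r was 0.38. The SD of the difference between the lists was 0.54 on the log2 scale, and 0.40 with at least 10 input reads. IP reads per gene, by contrast, had an r of 0.94 on the log2 scale. The order of genes by ratio is thus less certain than their order by reads.

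**Figure D2:**
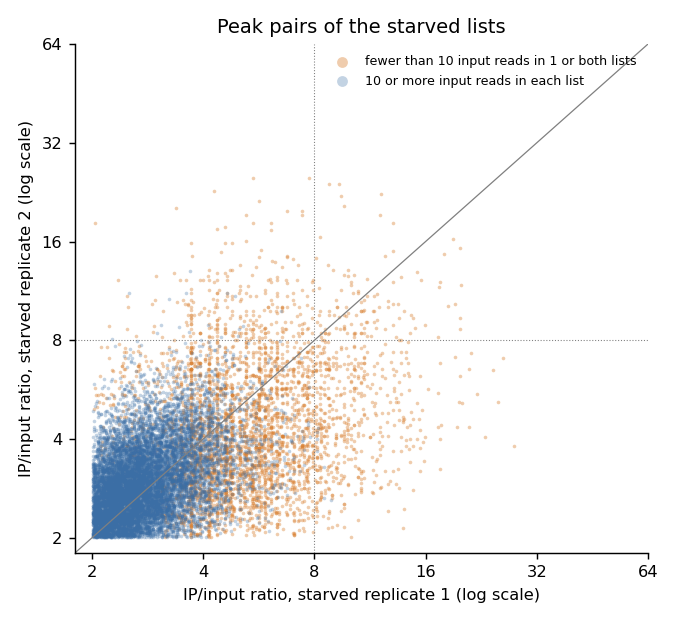
IP/input ratio of each pair in starved replicate 1 (x axis) and replicate 2 (y axis), both on log scales, without the pairs named Synb. Blue points have 10 or more input reads in each list and orange points fewer, dotted lines mark a ratio of 8 and the solid line marks equal ratios. No blue point lies past 8 on both axes.

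The first gene by ratio was Synb, named for a syncytin, a cell-fusion protein of retroviral origin. Its leading pair lay in Gm21451, an unprocessed pseudogene at chr14:69448821-69449320. It had 2290 IP reads and no input read in replicate 1, a ratio of 499.7 against the floor (lower limit 266) and of 327 against 3 reads. In replicate 2 it had 3246 IP reads against 2 input reads, a ratio of 883 against the floor (interval on the reads 299 to 8938). No peak lay there in either normal list. A stretch of at least 95% identity (best match 100%) was found elsewhere in the genome, so the reads may belong to either copy, and the ratio is uncertain. It was the only one of 54 named pairs with such a copy, although the Satb1 pair, of 30 bp, was too short for the search.

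The next genes by ratio had between 0 and 8 input reads. Foxred2, an oxidoreductase of the endoplasmic reticulum, had 87 IP reads against 0 input reads in its 3′ UTR in replicate 1, a ratio of 19.0 against the floor (lower limit 9.89) and of 12.4 against 3 reads. In replicate 2 it had 73 against 3, a ratio of 16.2 (5.34 to 80.5). Both starved lists were high for Foxred2, with wide intervals, and the normal lists had 9.58 and 7.33 on 2 and 1 input reads.

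Vash1, which encodes vasohibin-1, a tubulin carboxypeptidase and inhibitor of angiogenesis, had 61 IP reads against 2 in its 5′ UTR, a ratio of 13 (3.47 to 110). Replicate 2 had 67 against 2, a ratio of 18.2 against the floor (5.95 to 188). Rnf144b, a ubiquitin ligase, had 71 against 2 (15.2, 4.06 to 128) and 116 against 6 (12.9, 5.75 to 35.8) in its 3′ UTR. For both genes the intervals of the 2 lists overlapped.

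Zscan20, a zinc finger gene, had 122 against 3 (17.4, 5.82 to 85.7) and 140 against 8 (11.7, 5.76 to 27.6) in its coding sequence. Gdf6, a BMP-family ligand, had 93 against 2 (19.9, 5.36 to 167) and 53 against 3 (11.8, 3.82 to 58.9) in its 3′ UTR. The others in the leading 20 were Sbno2, Cep295nl, Fam189a2 (exons of Apba1), Satb1, Hapln3 (exons of Acan), Zbtb18, Nol4, AI463170 (exons of Sptb), Flrt1, Cyhr1, 1700061G19Rik, Zzz3, Morn1 and Alx4. Of the 20 pairs, 19 had at most 3 input reads in 1 or both lists and 6 lay outside annotated exons. With a floor of 10 units, 3 of the 20 genes stayed in the list.

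Among pairs with at least 10 input reads in each list, the leading transcripts were less extreme and closer to each other. Itpkb, a kinase of inositol trisphosphate (deposited name Stum), had 172 IP reads against 10 in replicate 1, a ratio of 7.37 (3.91 to 15.6). Replicate 2 had 148 against 14, a ratio of 7.05 (4.07 to 13.2). The pair lay in the coding sequence at chr1:180413681-180414190, in exon 4 of 8, around the first sequence shown above.

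Zc3h4, a zinc finger protein that restrains extragenic transcription, had ratios of 6.69 (4.16 to 11.5) and 6.67 (4.2 to 11.2) in its coding sequence. Sh3bp4, an endocytic adaptor, had 6.51 (3.54 to 13.3) and 9.80 (5.18 to 20.9) in its 5′ UTR. Arrb1, β-arrestin 1 (deposited name Tpbgl), had 6.57 (3.67 to 13) and 6.49 (4.36 to 10.0) in its 3′ UTR. For these genes the intervals were wider than the distance between them, so their order is not resolved.

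Better measured pairs were found a little lower. Snx33, a sorting nexin of endocytosis, had 10930 IP reads against 814 and 7898 against 886, ratios of 5.75 (5.36 to 6.19) and 5.94 (5.54 to 6.38). Its pair covered 3290 bp and the exonic part held 26 GGAC sites. Bdnf, the neurotrophin, had 1371 against 102 and 1306 against 147, ratios of 5.76 (4.71 to 7.12) and 5.92 (4.99 to 7.07). Vps18, a subunit of the HOPS tethering complex that brings autophagosomes and endosomes to lysosomes, had 1227 against 88 and 639 against 62, ratios of 5.98 (4.81 to 7.51) and 6.87 (5.29 to 9.07). In all 3 transcripts both lists gave a ratio over 5.

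The other leading transcripts were Zfp862-ps (deposited name 1700026J14Rik), Elmsan1 (Pnma1), Plcxd2, Soga1, Uhrf1bp1 (Taf11), Abl2, Rhbdd2 and Pogk, with smaller ratios from 5.55 to 6.26. All 15 stayed in the list under either other floor. Replicate 1 alone would have placed 3 of them in its own leading 15, and replicate 2 alone 2 of them.

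**Figure D3:**
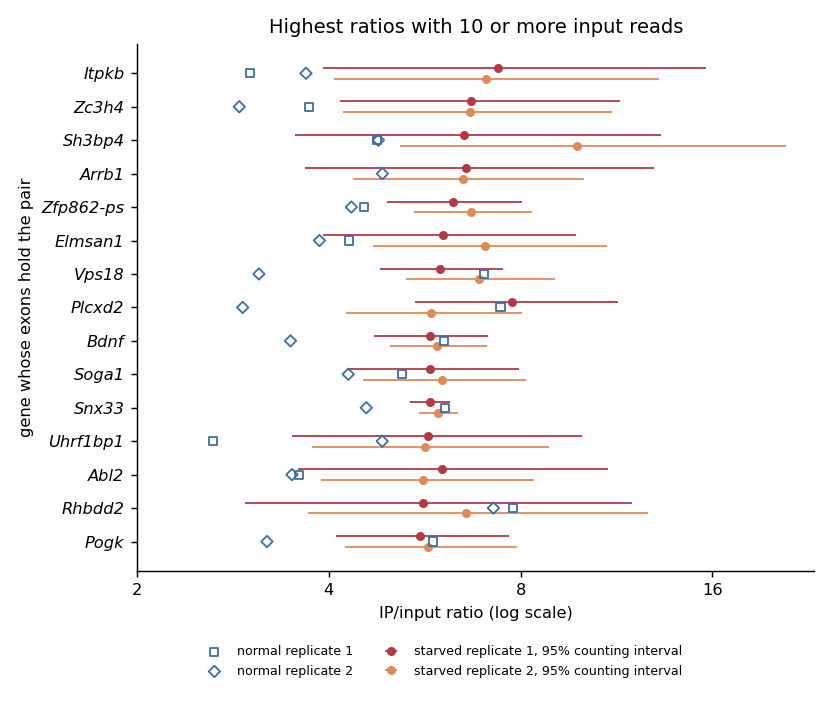
IP/input ratio (x axis, log scale) of the 15 leading pairs with 10 or more input reads in each list, named by the gene whose exons hold the pair. Filled points are the starved replicates with exact 95% counting intervals, and open symbols are the normal replicates, without intervals; Arrb1 had a peak in 1 normal list. The intervals of neighbouring genes overlap.

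Foxo3, which encodes the transcription factor FOXO3, an activator of autophagy genes, had 22813 and 21199 IP reads against 2802 and 2947 input reads over 4 pairs. The summed ratios were 3.49 and 4.8, and 89.9% of the transcript lay under both lists. In the last exon, in the 3′ UTR, the ratio was 3.06 (2.88 to 3.25) in replicate 1 and 3.91 (3.71 to 4.14) in replicate 2. The pair in exon 3, in the coding sequence, had 3.56 (3.34 to 3.80) and 5.14 (4.81 to 5.49).

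The pair in exon 2 had 4.30 (3.94 to 4.70) and 7.49 (6.68 to 8.42). It and the 5′ UTR pair shared 1 peak in replicate 1. Replicate 2 was higher than replicate 1 in every Foxo3 pair, beyond the counting intervals. The normal lists had overlapping peaks at each pair, with ratios from 3.0 to 5.52. The starved and normal values thus overlapped, and none of the 3 regions passed the test described below.

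Of the 20 genes of insulin signalling and FOXO, 9 had a pair in their exons (45%), against 14.4% of 21924 protein-coding genes. By deposited name the background was 16.6%. Both backgrounds count every annotated coding gene, including genes that MEFs may not express. The best smaller ratio per gene had a median of 3.46 in this list and of 3.18 over all coding genes with a pair. Irs2, an adaptor of the insulin receptor, had 10469 and 13058 IP reads and summed ratios of 3.65 and 4.54. Insr, the insulin receptor, had 7801 and 8377 IP reads with 2.64 and 3.01, and Foxo1, a relative of Foxo3, had 1812 and 1520 with 2.8 and 3.41. Genes of this list had a median transcript of 5679.5 nt, against 2543 nt for all coding genes, and the part of length in the share was not tested.

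Of the autophagy machinery, 11 of 41 genes had a pair in their exons (26.8%), against 14.4% of all coding genes. The median transcript of the list was 3581 nt, against 2543 nt for all coding genes. Ulk1, the kinase that starts autophagy, had 3668 and 3897 IP reads with summed ratios of 2.43 and 2.99. Ambra1, a regulator of the ULK1 and Beclin 1 complexes, had 4279 and 3717 with 2.94 and 2.82. Epg5, a tether of autophagosomes and lysosomes, had 30 pairs and summed ratios of 2.68 and 3.36. Zfyve26, which acts in lysosome reformation, had 27 pairs with 2.71 and 3.61. Map1lc3b, Atg14, Ulk2 and Wdr45b were named in the lists without a pair in their own exons.

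Of the nutrient-sensing genes, 15 of 46 had a pair in exons (32.6%), against 14.4% of all coding genes, with a median transcript of 3456 nt. Fnip2, a partner of folliculin at the lysosome, had 5778 and 8402 IP reads with summed ratios of 3.07 and 3.18. Tsc1, a subunit of the complex that restrains mTORC1, had 2282 and 3020 with 2.77 and 2.61. Wdr59, a subunit of GATOR2, had 1205 and 1280 with 3.21 and 3.24. Sesn3, a member of the sestrin family, had 492 and 783 IP reads, the fewest of these 4 genes.

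The integrated stress response had 5 of 25 genes (20%) with a pair, against 14.4% of all coding genes, with a median transcript of 2809 nt. Ppp1r15b, a subunit of the eIF2α phosphatase, had 12633 and 13386 IP reads with summed ratios of 3.17 and 4.13. Stc2, a secreted stanniocalcin, had 250 and 316 with 4.29 and 3.45, and Slc7a11, the cystine transporter, had 284 and 174 with 3.04 and 2.52. Eif2ak1, the haem-regulated eIF2α kinase, rested on 49 IP reads against 0 input reads and 36 against 2. Of the deadenylation factors, 3 of 17 had a pair (17.6%), which were Pan2, Pan3 and Cnot1, close to the background share.

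Of the m6A writer-complex genes, 3 of 9 had pairs (33.3%), against 14.4% of all coding genes, and these were Rbm15, Rbm15b and Virma. Rbm15b had 23165 and 22387 IP reads over 99.2% of its transcript, with summed ratios of 3.26 and 4.61, and Rbm15 had 4.07 and 4.57. Of 2 erasers, Alkbh5 had pairs, with 26133 and 27858 IP reads and summed ratios of 2.75 and 3.88. Of 11 readers, 4 had pairs (36.4%), Ythdf1, Ythdf2, Ythdf3 and Igf2bp1. Ythdf3 itself had 2269 and 3626 IP reads with 2.14 and 2.92. The lists are small, and their median transcripts, of 3900, 4647 and 4129 nt, were longer than the 2543 nt of all coding genes.

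The lists with the largest shares held regulators. Chromatin regulators had a pair in 36 of 52 genes (69.2%), against 14.4% of all coding genes. Kmt2a, a histone methyltransferase, had 3761 and 5274 IP reads with summed ratios of 2.9 and 2.59, and Setd1a, another, had 6977 and 6199 with 2.71 and 3.13. Chd9, a chromatin remodeller, and Kdm2b, a histone demethylase, had between 332 and 1146 IP reads. This list also had the longest median transcript of the lists, 8409.5 nt.

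Genes of TGF-β and BMP signalling had a pair in 21 of 31 (67.7%), against 14.4% of all coding genes, with a median transcript of 4278 nt. Smad2, a signal transducer, had 502 and 962 IP reads with summed ratios of 5.12 and 3.17, and Acvr1b, an activin receptor, had 879 and 768 with 3.49 and 3.05. Acvr2b and Smad9 had at most 220 IP reads and 1 to 17 input reads. Hippo pathway genes had 10 of 19 (52.6%), with a median transcript of 4222 nt. Amotl2, an angiomotin that binds YAP, had 24233 and 26803 IP reads with 2.45 and 3.02, and Lats2, the kinase that inactivates YAP, had 2155 and 2823 with 3.0 and 2.94. Tead4, a partner of YAP, and Wwtr1, which encodes TAZ, had at most 133 IP reads.

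Immediate-early and ERK feedback genes had a pair in 18 of 32 (56.2%), against 14.4% of all coding genes, with a median transcript of 2784.5 nt. The members with the highest ratios had few reads. Egr2, a transcription factor, had 77 and 90 IP reads on 1 and 13 input reads, and Spry4, an inhibitor of ERK signalling, had 141 and 335 on 3 and 43. Dusp8, a phosphatase of MAP kinases, had 30 and 154 on 2 and 22. By reads, Fosl2, a subunit of AP-1, led with 54654 and 47257 IP reads and summed ratios of 3.02 and 3.63, and it was chosen after its values were seen.

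Lists of short housekeeping transcripts were nearly absent, and so was the list of olfactory receptors. Of 84 ribosomal protein genes, 1 had a pair in its exons (Rpl18, with 131 and 64 IP reads), and none of 78 oxidative phosphorylation genes, 39 proteasome subunits and 1092 olfactory receptors had one. Their median transcripts, 882, 735 and 1541 nt, were shorter than those of all coding genes except for olfactory receptors, at 2695 nt. By deposited name these lists would have had 5, 7, 4 and 1 genes. Zfp zinc finger genes had 91 of 391 (23.3%), with a median best ratio of 3.6, and solute carriers had 77 of 375 (20.5%).

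Fibroblast matrix genes had a pair in 9 of 23 (39.1%) and collagen chains in 11 of 44 (25%), against 14.4% of all coding genes. Their median transcripts were 5564 and 5626.5 nt. Fbn2, the microfibril protein fibrillin-2, had 3649 and 6012 IP reads with summed ratios of 2.47 and 2.71. Of the fibroblast markers, Pdgfra, Pdgfrb and Prrx1 had pairs and 7 of 10 did not, and of 22 markers of other cell types only Kdr had one, with 29 and 45 IP reads and no input reads. A gene without a peak may still be expressed, since the lists hold only enriched stretches, so the markers do not measure the make-up of the cultures.

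**Figure D4:**
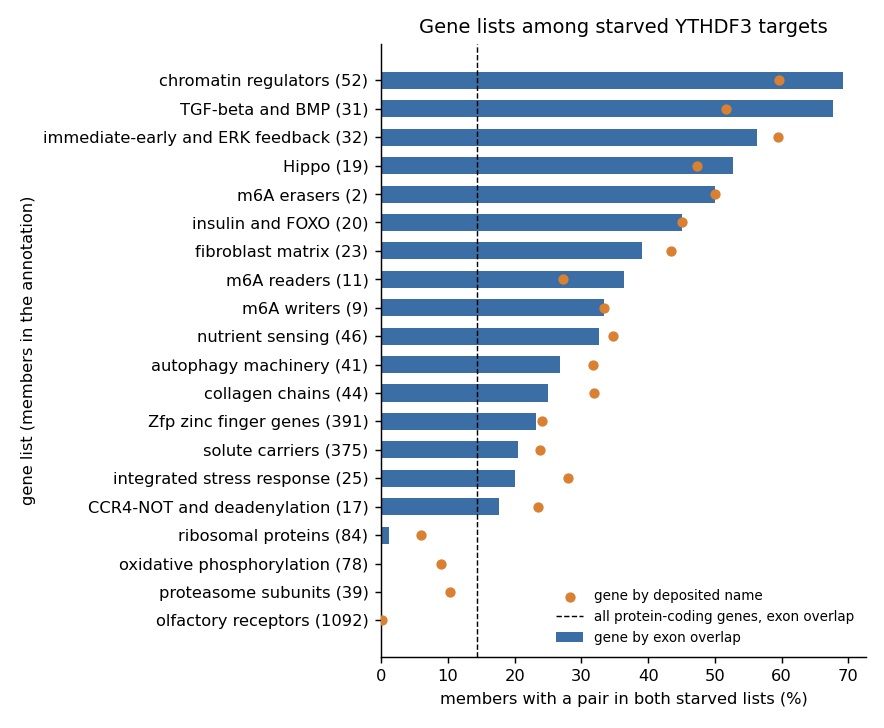
Share of each gene list with a pair in both starved lists (x axis), with the number of members in brackets. Bars assign a pair to the gene whose exons it overlaps most, points use the deposited name, and the dashed line marks the 14.4% of all protein-coding genes by exon overlap. Chromatin regulators and TGF-β and BMP genes have the longest bars, and oxidative phosphorylation and proteasome subunits have none.

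Several non-coding transcripts were recovered. Among 176 hosts annotated as other than protein-coding, Zfp469, annotated as a lincRNA in this release although it has a protein-coding counterpart in other species, led with 57795 and 66440 IP reads over 12850 and 12950 bp of peak. Its summed ratios were 2.86 and 4.05. Peg13, an imprinted transcript expressed from the paternal allele, had 5204 against 431 and 4549 against 563, ratios of 5.17 and 5.39. Both values were above 4.23, the smaller ratio that 10% of pairs exceeded. These genes were chosen after their values were seen.

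The pairs lay mostly in coding sequence. The centre of 11483 pairs fell in an exon of the transcript with the longest coding sequence of a gene. The other 3623 pairs (24.0%) were left out. Of the 11483 pairs placed, 68.2% (interval 67.3 to 69.1) were in coding sequence, which made up 51.0% of the exonic length of the same genes. The 3′ UTR held 23.2% (22.4 to 23.9) against 43.2% of the length, and the 5′ UTR held 8.64% (8.13 to 9.17) against 5.78%. These intervals treat pairs as independent, although many share a gene. With 50% reciprocal overlap, the 3′ UTR share was 14% and that of coding sequence 75.9%. With 1 pair per gene, they were 26.2% and 59.0%. Internal exons held 56.5% of pair centres and 39.2% of the length, and last exons held 30.3% and 50.4%. A long exon can hold 1 long pair where several short exons hold 1 pair each, so these shares depend on the unit counted. The size of this effect was not tested.

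Pairs with higher ratios lay more often in UTRs. With pairs ordered by the smaller ratio into 4 classes of equal size, from the lowest to the highest class the coding share went from 71.5% to 62.1%, the 3′ UTR share from 20.3% to 27.7% and the 5′ UTR share from 8.11% to 10.2%. The highest class also had the fewest reads, with medians of 7 and 13 input reads against 54 and 87 in the lowest. The 200 nt on each side of stop codons held 6.98% of pair centres and 7.54% of the exonic length. Internal exons of at least 400 nt held 11% of the pairs and 10.8% of the length. The exon under a pair had a median length of 363 nt, against 142 nt for exons of the same genes. This median rose from 238 nt in the lowest class of ratio to 1008 nt in the highest. Long exons take up more of the sequence, and the part of this in the medians was not tested.

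**Figure D5:**
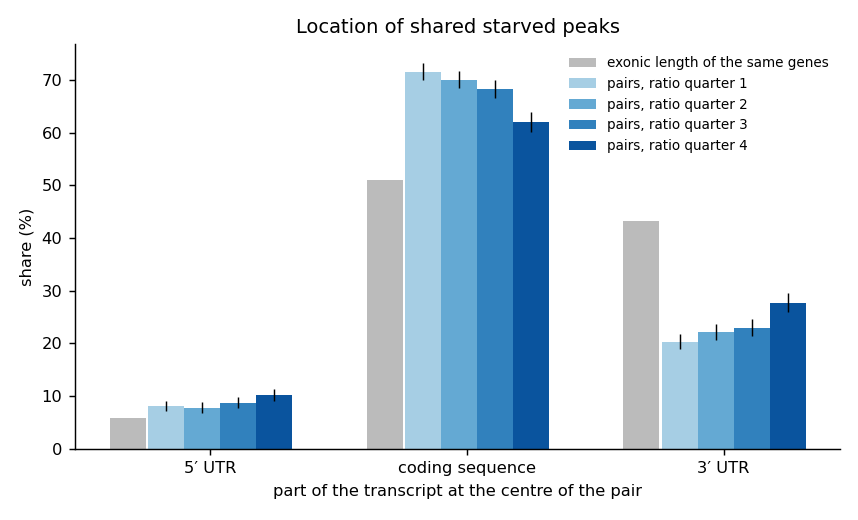
Share of pairs (y axis) by the part of the transcript at the centre of the pair, for 4 equal classes of the smaller IP/input ratio from low (pale) to high (dark), with exact 95% binomial intervals. Grey bars give the share of the exonic length of the genes of all pairs. Blue bars exceed the grey bar in coding sequence and fall below it in the 3′ UTR.

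GGAC was frequent under the pairs, and so were other arrangements of its letters. On the transcribed strand, GGAC lay in 61.7% of 200 bp windows at the centres of pairs. It lay in 51.2% of 4979 windows in exons of the same genes outside all peaks, and in 57.5% of windows at the centre of every exon of 200 bp or more. The windows differed in GC content, at 54.5%, 47.5% and 52.4%. The 12 arrangements of G, G, A and C give a scale for this. Between pairs and windows outside peaks the share with GGAC differed by a factor of 1.21, 9th of the 12.

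The 6 arrangements without CG had factors from 1.18 to 1.21 and those with CG from 1.40 to 1.57. From the lowest to the highest class of ratio, the share with GGAC was 60.3%, 60.4%, 63.0% and 63.6%, with GC contents from 54.1% to 55.1%. GGACT lay in 21.7% of pair windows and 18% of windows outside peaks. Among the 12 named pairs with at least 10 input reads that lay on a coding transcript, 9 held GGAC in the exonic part, and Sh3bp4, Arrb1 and Elmsan1 did not.

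Many starved pairs were also found in the normal cultures. Of the starved pairs, 49.7% (7502) overlapped a peak in both normal lists, 33.1% in 1 of them, and 17.3% (2606) in neither. The share found in both normal lists rose with depth, from 16.6% in the lowest of 4 equal classes of IP reads, up to 73 reads, to 80.9% in the highest, from 427 reads. Pairs with no normal peak had a median smaller count of 61 IP reads and a median smaller ratio of 2.93.

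Of the 20 pairs with no normal peak and the most IP reads, 18 had a smaller ratio from 2.02 to 2.56, close to the IP/input threshold of 2 that the study's methods state. A pair in Eif4g1, the translation initiation scaffold, had 6922 and 6454 IP reads with 2.09 and 2.50. One in Brd2, a bromodomain protein, had 5169 and 5930 with 2.09 and 2.30, and one in the 3′ UTR of Bcl2l1, the apoptosis inhibitor BCL-XL, had 3611 and 3206 with 2.21 and 2.04. These were chosen after their values were seen. A region missing from a normal list has no deposited values there, so its normal ratio is unknown.

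The ratio itself was compared between starved and normal cultures in the 6621 regions called in all 4 lists, of which 6569 held a shared starved pair. Requiring a peak in every list leaves out regions with a low ratio in any culture. The test therefore cannot show whether binding changed in those regions. Libraries were scaled on the reads of the tested regions, which left a median log2 difference of 0.004. A change in binding shared by most regions would thus not be seen, and each difference is relative to the other regions. With edgeR's quasi-likelihood test on recovered reads, 1 region (0.0151%) had a Benjamini-Hochberg adjusted p under 0.05, and 200 (3.02%) had an unadjusted p under 0.05. DESeq2 also called 1 region, with 37 (0.559%) under an unadjusted p of 0.05. With a term for replicate number added in edgeR, 10 regions passed, 5 higher and 5 lower in starved cultures. Which count is better is not settled. In edgeR, 3 regions passed without normal replicate 1, 2 without normal replicate 2, 4 without starved replicate 1 and 2 without starved replicate 2. The 1 region of the main edgeR test was at chr14:69445381-69446090, named Synb and in Gm21451 like the leading pair. Its log2 difference was 7.32 ± 0.66 (SE). In data simulated on these regions, with 100 changed 4-fold and 100 changed 2-fold, the test recovered 96% of 4-fold and 54% of 2-fold changes. Many 2-fold changes would thus have been missed. The Benjamini-Hochberg cut is stricter when fewer regions change, so recovery of a lone change would be lower. Recovery in regions with few input reads was not measured separately. In the simulation the spread between samples depended only on the read level of a region. Recovery in regions with a larger spread would be lower.

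The named targets did not pass this test. The regions that hold the 15 leading pairs with a measured input were all tested, and 0 passed. Their log2 differences (starved minus normal) were from -0.06 to 1.08, with 6 unadjusted p under 0.05 in edgeR. A region can be longer than its pair, and its peaks can differ in length between lists. The lowest difference was in the Arrb1 region, with 490 bp of peak and 1 input read in normal replicate 1 and 2700 bp in starved replicate 2. Because the pairs were selected for high starved ratios, the direction of these differences is no result. The 2 starved ratios were above both normal ratios in 8 of the 14 with a peak in both normal lists. Itpkb had normal ratios of 3.0 and 3.68 on 18 and 22 input reads. Vps18 had 7.0 and 3.11 in the normal lists, on either side of its starved values. Of the 13 regions among the leading genes by reads, 0 passed, and their differences lay between -0.14 and 0.31.

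Both IP and input reads differed widely between conditions in a few regions. Bmf, which encodes a pro-apoptotic BCL2-family protein, had 2743 and 1751 IP reads and 448 and 356 input reads in the starved lists over 3900 and 3620 bp of peak. In the normal lists the same region had 28 and 37 IP reads and 0 and 1 input reads over 440 and 560 bp. The Fosb region with the most reads, in a gene for a subunit of AP-1, went the other way, with 147 and 252 starved IP reads on 10 and 26 input reads against 624 and 1832 on 188 and 574 in the normal lists. In both genes the input moved with the IP, and the peaks differed in length between lists. For the Fosb region the IP/input was also higher in both starved lists than in both normal lists. For Bmf the normal ratio rests on 0 and 1 input reads. The adjusted p for the ratio, by edgeR's quasi-likelihood test, was 0.20 for Bmf and 1 for this Fosb region. Both were chosen after their values were seen. In bulk samples, fewer cells with a transcript and less of it per cell cannot be told apart.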

How the data were processed

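RNA immunoprecipitation sequencing with an anti-YTHDF3 antibody was analysed from the 4 deposited peak lists, each comparing an IP library with its input. Per the labels, reads were aligned to mm10 with TopHat2 2.0.13 and peaks annotated with HOMER; the study's methods name diffReps as the peak caller. The authors deposited IP and input signal per peak, which is reads multiplied by 1 constant per library, and in 1 list (normal replicate 2) plain read counts. Dividing the signal by its constant gave whole reads in 100% of values (within 0.00991 reads). The deposited log2 fold changes (IP over input) were not used, and the deposited p-values served only an alternative with the stated thresholds (IP/input of at least 2, p under 0.0001). The lists hold reads in called peaks only, 15731226 and 19284322 IP reads in the starved lists, so library depth is unknown.

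The ratio was IP over the larger of input and 3 deposited units. Exons came from GENCODE M21 and sequence from RefSeq GRCm38. Genes were named by rule: the 20 with the largest smaller ratio (at least 20 IP reads in each list), the 15 with also at least 10 input reads, the 15 with most IP reads, up to 4 members per gene list by smaller ratio, Foxo3, the m6A genes, and regions passing the test. The members and lists were chosen with earlier results of these data known. Peaks of the 4 lists were chained by overlap into regions, and those called in all 4 were tested with edgeR 4.0.16 (quasi-likelihood, TMM, 1 term per culture, IP, and IP in starved cultures), with DESeq2 1.42.0 as an alternative. The test was checked on simulated data. Near-identical copies of the named pairs were sought by blastn 2.17.0, requiring 95% identity. 1 of the genes the rule names is not reported here.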

Additional observations from a re-analysis of the deposited data

Results flagged for a closer look

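The Synb region at chr14:69445381-69446090, in exons of Gm21451, differed between conditions. Its log2 IP/input was 7.32 higher in starved than in normal cultures (edgeR's quasi-likelihood test, adjusted p = 5.17e-05), and from 5.84 to 7.85 higher with 1 culture left out. The starved lists had 1813 IP reads against 1 input read and 2464 against 3, and the normal lists had 1112 against 369 and 185 against 18. In this region all 4 lists thus had many IP reads, while the starved inputs had nearly none. Over all shared pairs in Gm21451, however, starved replicate 1 had 14740 IP reads against 1440 input reads and replicate 2 had 8433 against 15, summed ratios of 4.39 and 375. The region itself was not searched for copies, but another stretch of the same pseudogene has an identical copy elsewhere, and how reads were shared between copies was not tested.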

How the results depend on the processing

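Counts of shared peaks and genes stayed within 1.5 times under 50% reciprocal overlap and under the stated thresholds, but an IP/input of at least 4 left 1892 and 1868 shared peaks. The 119 pairs with a smaller ratio of at least 8 became 54 with a floor of 3 reads and 8 with a floor of 10 units. They became 0 with at least 10 input reads in each list and 52 with 50% reciprocal overlap. Judged by the ratio of 1 list alone, 358 pairs (replicate 2) and 535 pairs (replicate 1) reached 8. With 1 pair per gene, the share was 59.0% in coding sequence, 26.2% in the 3′ UTR, 8.25% near stop codons and 9.32% in long internal exons. With 50% reciprocal overlap these shares were 75.9%, 14%, 5.63% and 9.94%. GGAC lay in 39.3% of 100 bp windows, in 64.4% of windows with 1 pair per gene and in 63.4% with 50% reciprocal overlap. Around the best window of the peak caller, an alternative chosen after seeing the data, it lay in 59.4% (replicate 1) and 59.8% (replicate 2).

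In the test between conditions 1 region passed. With at least 10 input reads in every list, 0 of 5661 regions passed in edgeR, with 166 at an unadjusted p under 0.05; the Synb region was not among those tested. Leaving out normal replicate 1 gave 3, normal replicate 2 gave 2, starved replicate 1 gave 4 and starved replicate 2 gave 2, where the lone culture is assumed to vary like the others. With a replicate block 10 regions passed, 5 higher and 5 lower. The labels give same-numbered normal and starved cultures a shared tag but do not say what it marks, and there are only 2 pairs. Deviations of same-numbered cultures had a correlation of 0.29, and their log2 ratios had r of 0.56 and 0.54, against 0.48 and 0.49 between replicates of a condition. Whether 1 or 10 is the better count is not settled by this. For the leading pairs by ratio and by reads and for Foxo3, 43 regions were tested, and 0 passed under any of these settings. The setting with at least 10 input reads held 30 of them. Regions of the other gene-list members were not counted here.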
